A study of Mus musculus with 10 samples.

Results

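The expression of 10 plasma cell genes was examined in the spleens of DUSP6 KO and wild-type (WT) mice with KRN serum-induced arthritis (KSIA). The genes were taken by name (Jchain, Mzb1, Xbp1, Prdm1, Irf4, Sdc1, Tnfrsf17, Derl3, Eaf2 and Pou2af1) and are 10 of the 54532 genes in the deposited expression table. Total RNA of 5 DUSP6 KO and 5 WT spleens was sequenced after poly-A selection, with 1 library per mouse. The DUSP6 KO mice carried the Dusp6tm1Jmol allele, which deletes the gene in every cell, and the WT mice were C57BL/6J. Mice were 8 to 12 weeks old in all experiments of the study, and the methods do not say how far the mutant strain was crossed to C57BL/6J. Both groups received 100 µL of pooled serum from arthritic KRN x NOD F1 mice by intraperitoneal injection on day 0 and again on day 2, and spleens were taken on day 9, at the peak of arthritis. No spleens of mice without serum were analysed here, so that all values are those of arthritic mice. The sample labels name the mutant genotype a knockdown, and the name DUSP6 KO of the study is used here.

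Plasma cells are the end stage of B cell differentiation and secrete antibody. The transcription factors IRF4 and BLIMP1 (the product of Prdm1) turn off the B cell programme, and XBP1 then enlarges the endoplasmic reticulum (ER), where immunoglobulin chains are folded and assembled. In the spleen, short-lived plasmablasts and plasma cells gather in the red pulp after an immune response. KSIA is driven by transferred antibody, so the arthritis itself does not require the recipient's own plasma cells. In RNA of a whole spleen, fewer plasma cells and less RNA per plasma cell cannot be told apart.

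Expression is given as FPKM, fragments per kilobase of gene length scaled to the size of the library, so that levels of different genes can be compared per length. Values after ± are the SD over the 5 mice of a group. The libraries held 14990474 to 19822673 reads on genes. Dusp6 averaged 0.440 ± 0.117 FPKM in the mutants against 19.4 ± 2.8 FPKM in the WT mice, as the labels have it. At most 8 reads of Xist and at least 1098 reads of the Y-linked Ddx3y were found in each library, as in male mice. Markers of spleen cells were present in every library, with 8 B cell markers summing to 702 to 1396 FPKM in DUSP6 KO spleens and to 795 to 1797 FPKM in those of WT mice. The corresponding sums were 120 to 247 FPKM and 142 to 208 FPKM for 8 T cell markers, and 1073 to 1654 FPKM and 1163 to 1426 FPKM for 8 red pulp macrophage markers. WT replicates 67 and 65 stood apart through transcripts of the exocrine pancreas. The 14 pancreatic markers summed to 19901 FPKM in WT replicate 67, to 249 FPKM in WT replicate 65 and to 9.58 to 26.2 FPKM in the other 8 libraries. Acinar cells of the pancreas are secretory cells that also express Xbp1 and ER genes, so results below are also given without these libraries where that matters.

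All 10 plasma cell genes were expressed above the filter for testing (a mean of at least 0.1 FPKM over the 10 libraries), and every member had reads in every library. The log2 fold change, taken on log2(FPKM + 0.1), was below 0 for 8 of 10 members, against 51% of all genes tested. For Jchain and Tnfrsf17 it was 0.013 and 0.087. Their mean FPKM in DUSP6 KO was in each case 98.1% of that in WT. The median log2 fold change of the members was −0.17, against −0.0046 for all 21296 genes tested. None of the members had an adjusted p of 0.05 or less in limma with Benjamini-Hochberg adjustment over all genes tested, nor with limma voom on recovered reads, and the share of all genes that passed was 0.0704%. Before adjustment, 2 of 10 members had a p under 0.05 by either method (Xbp1 and Derl3), against 5.66% of all genes in limma. Both were lower in DUSP6 KO, where 3.03% of all genes were lower and 2.62% were higher at this threshold. For 10 of 10 members the values of the groups overlapped. Over all genes, 1.11% had no overlap, 0.563% with lower and 0.549% with higher values in DUSP6 KO. Members are not replicates of each other, since they can come from the same cells.

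**Figure D1:**
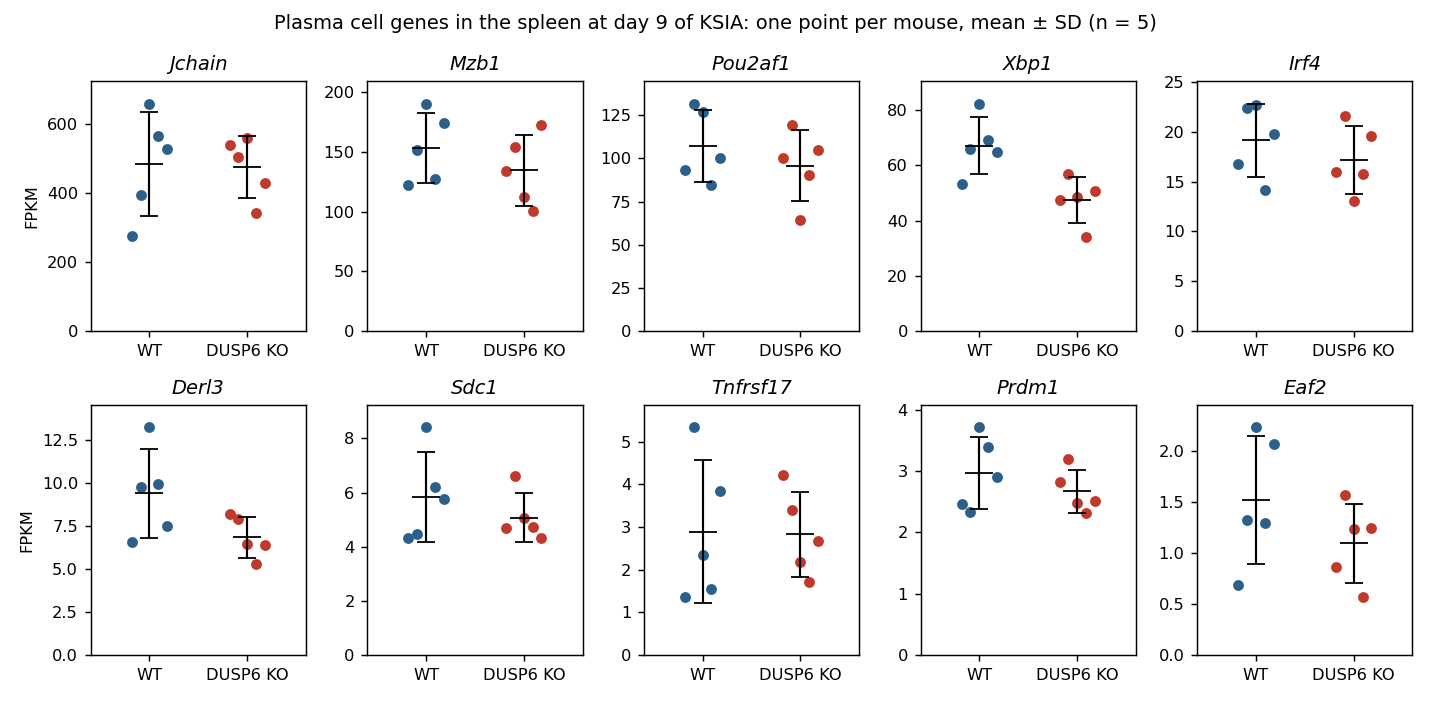
FPKM (vertical axes, linear from 0) of the 10 plasma cell genes in WT (blue) and DUSP6 KO (red) spleens, with 1 point per mouse, and the mean with SD as bars (n = 5). The groups overlap in each panel, and the widest separation is that of Xbp1, with means of 67.01 FPKM (WT) and 47.4 FPKM (DUSP6 KO).

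Xbp1 (ENSMUSG00000020484, chromosome 11, 5520659 to 5525893, GRCm38, plus strand) encodes the transcription factor that drives the secretory programme. In DUSP6 KO replicates 26, 21, 73, 01 and 03 its values were 47.2, 56.7, 48.4, 34.2 and 50.5 FPKM. WT replicates 65, 67, 73, 77 and 83 had 53.3, 65.9, 82.2, 68.9 and 64.7 FPKM, and other genes are given in the same order of replicates. Thus 4 of the 5 DUSP6 KO spleens were below the lowest WT spleen and 4 of the 5 WT spleens were above the highest DUSP6 KO spleen. The mean was 47.4 ± 8.2 FPKM in mutant against 67.01 ± 10.3 FPKM in WT spleens, so that DUSP6 KO spleens had 70.7% of the WT level. The log2 fold change was −0.50 (standard error 0.15, 95% confidence interval −0.83 to −0.18), with an unadjusted p of 0.0056 and an adjusted p of 0.56 in limma. By p-value Xbp1 ranked 210 among the 21296 genes, and a two-sided exact permutation test of the 5 against 5 values gave p = 0.016. The fold change was −0.51 without WT replicate 67 and −0.61 without WT replicates 65 and 67 (limma adjusted p = 0.65, against 0.32 to 0.87 over all alternatives). WT replicate 65 had the lowest WT value, and leaving out both libraries was chosen after the values were seen. The part of pancreatic cells in the Xbp1 values was not tested beyond these fits. The table gives 1 value per gene, so the spliced form of the Xbp1 mRNA, which encodes the active factor, was not separated from the unspliced form.

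Derl3 (ENSMUSG00000009092, chromosome 10, 75893413 to 75895941, plus strand) encodes a derlin of the ER membrane that takes part in the export of misfolded proteins for degradation, and is a known target of XBP1. The DUSP6 KO values were 8.17, 7.90, 6.47, 5.30 and 6.38 FPKM. The WT values were 6.54, 9.75, 13.2, 9.96 and 7.53 FPKM. Of the DUSP6 KO spleens, 3 were below the lowest WT spleen, and the highest value was that of WT replicate 73. The mean was 6.85 ± 1.18 FPKM in mutant against 9.40 ± 2.59 FPKM in WT spleens, and a two-sided exact permutation test gave p = 0.087. The log2 fold change was −0.43 (standard error 0.19, 95% confidence interval −0.85 to −0.0093), with an unadjusted limma p of 0.046 and an adjusted p of 0.87. Without WT replicate 73 it was −0.29 (limma, unadjusted p of 0.11), and without WT replicate 67 it was −0.40 (limma, unadjusted p of 0.083). Derl3 lies 23.4 Mb from the deleted gene on the same chromosome, and Prdm1 lies 54.8 Mb from it.

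RefSeq promoter sequences, 250 bases before to 50 bases after a gene's start on GRCm38.p6, were matched for 9 of the 10 members (11 windows, 3 of them of Eaf2), all but Mzb1. They were searched on both strands for 4 motifs tied to the factors of this programme. The ER stress response element (CCAAT and CCACG with 9 bases of any kind between them) was found in the promoter of Derl3 and in 0.119% of all 32851 promoters of this length. The UPR element, TGACGTGG, whose reverse complement shares its first 5 bases with the end of the first motif, was found in the promoter of Pou2af1 and in 0.676% of all promoters. The interferon-stimulated response element (GAAA and GAAA with 2 bases of any kind between them) was found for Tnfrsf17 and in 3.44% of promoters. The octamer, ATGCAAAT, the motif at which the product of Pou2af1 assists OCT factors, was found for no member and in 1.74% of promoters. The 250 bases before the start of Derl3 and Pou2af1 are shown because they hold the motifs of the ER stress response, with the match in capitals.
Derl3, chr10:75893148-75893397, plus strand: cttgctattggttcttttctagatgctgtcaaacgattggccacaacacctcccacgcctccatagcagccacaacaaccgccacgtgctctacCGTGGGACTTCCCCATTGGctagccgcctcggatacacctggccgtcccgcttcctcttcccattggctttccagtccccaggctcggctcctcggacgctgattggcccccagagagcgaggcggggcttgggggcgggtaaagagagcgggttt
Pou2af1, chr9:51213440-51213689, plus strand: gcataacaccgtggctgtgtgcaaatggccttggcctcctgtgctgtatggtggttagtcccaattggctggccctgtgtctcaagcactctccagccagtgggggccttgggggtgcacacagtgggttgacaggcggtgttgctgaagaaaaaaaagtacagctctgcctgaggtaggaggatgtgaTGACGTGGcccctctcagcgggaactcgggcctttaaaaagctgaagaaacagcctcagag
The match in Derl3 lies on the minus strand at −156 to −138 from the start, and that in Pou2af1 at −61 to −54. A match describes the letters only and is not a measured binding site.

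Prdm1, Irf4, Pou2af1 and Eaf2, which encode other regulators of transcription, had p-values above 0.05 before and after adjustment in the fit of all 10 libraries. Prdm1 (chromosome 10), which encodes BLIMP1, was at 2.82, 3.20, 2.48, 2.31 and 2.52 FPKM in DUSP6 KO. Its values in WT were 2.46, 2.34, 3.71, 3.39 and 2.91 FPKM. The 2 highest values were in WT replicates 73 and 77 and the lowest in DUSP6 KO replicate 01, with a log2 fold change of −0.13 (95% confidence interval −0.47 to 0.20, limma adjusted p = 0.99), and of −0.31 without WT replicates 65 and 67. Irf4 (chromosome 13), which is also expressed in activated B and T cells, was at 15.9, 21.6, 13.0, 15.7 and 19.5 FPKM in DUSP6 KO. The WT spleens had 16.8, 22.3, 22.7, 14.1 and 19.8 FPKM. The Irf4 values interleaved, with a log2 fold change of −0.16 (95% confidence interval −0.52 to 0.21, limma adjusted p = 0.98). Pou2af1 (chromosome 9) encodes the coactivator OBF1, which is active throughout the B lineage, and was at 100.2, 119.7, 64.1, 90.5 and 104.8 FPKM in DUSP6 KO. The WT spleens had 93.4, 131.7, 127.0, 84.6 and 100.3 FPKM. The lowest Pou2af1 value was in DUSP6 KO replicate 73, the library with the lowest sum of B cell markers, and the highest was in WT replicate 67, the library with the highest sum. The log2 fold change of Pou2af1 was −0.17 (95% confidence interval −0.57 to 0.22, limma adjusted p = 0.98), and the 8 B cell markers had a median of −0.18. Eaf2 (chromosome 16), which encodes a factor that binds the transcription elongation factor ELL, was at 0.858, 1.57, 1.23, 0.570 and 1.24 FPKM in DUSP6 KO and had 51 to 168 reads per library. Its values in WT were 0.683, 1.32, 2.23, 1.29 and 2.07 FPKM. Eaf2 thus varied up to 41.6% (coefficient of variation) within a group, and its log2 fold change of −0.41 had a 95% confidence interval of −1.15 to 0.34 (limma adjusted p = 0.98). It was −0.75 without WT replicates 65 and 67, and between −0.64 (without WT replicate 65) and −0.21 (without DUSP6 KO replicate 01) with 1 library left out. Eaf2 and Pou2af1 overlap other genes, and the sources do not give the strand setting of the counting, so that some of their reads are uncertain.

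Among genes of immunoglobulin assembly, Jchain (ENSMUSG00000067149, chromosome 5, 88519809 to 88527891, minus strand) had the highest level of the members and encodes the joining chain of polymeric IgM and IgA. The DUSP6 KO values were 539.6, 505.4, 559.1, 341.3 and 429.9 FPKM. The WT values were 276.4, 394.1, 658.7, 564.0 and 528.1 FPKM. WT mice included both the lowest and the highest value, and the mean was 475.1 ± 89.6 FPKM in mutant against 484.2 ± 150.0 FPKM in WT spleens. The log2 fold change was 0.013 (95% confidence interval −0.51 to 0.54, limma adjusted p = 1.0), and without WT replicate 65 it was −0.17. Mzb1 (chromosome 18), an ER protein that helps immunoglobulin assembly, was at 133.6, 153.6, 112.3, 100.2 and 172.7 FPKM in DUSP6 KO. The WT spleens had 122.3, 151.5, 190.2, 126.9 and 174.4 FPKM. DUSP6 KO replicates 73 and 01 were below every WT spleen, and the log2 fold change was −0.19 (95% confidence interval −0.58 to 0.19, limma adjusted p = 0.98).

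The surface genes showed no difference beyond the spread between mice. Sdc1 (chromosome 12), which encodes CD138, was at 4.67, 6.60, 5.05, 4.74 and 4.30 FPKM in DUSP6 KO. WT mice had 4.31, 4.46, 8.40, 6.21 and 5.77 FPKM. Only WT replicate 73 exceeded the highest DUSP6 KO value, and the log2 fold change was −0.17 (95% confidence interval −0.58 to 0.24, limma adjusted p = 0.99). Without WT replicates 65 and 67 it was −0.41 (limma adjusted p = 0.97). Tnfrsf17 (chromosome 16), which encodes BCMA, the APRIL and BAFF receptor of plasma cells, was at 4.21, 3.41, 2.18, 1.70 and 2.66 FPKM in DUSP6 KO. WT mice had 1.36, 5.33, 2.35, 1.55 and 3.83 FPKM. It rested on 19 to 83 reads per library and had the widest spread of the members, at 58.2% (coefficient of variation) in WT. Its log2 fold change was 0.087 (95% confidence interval −0.75 to 0.92, limma adjusted p = 0.99), an interval that holds changes of about this size or larger for each of the other members.

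**Figure D2:**
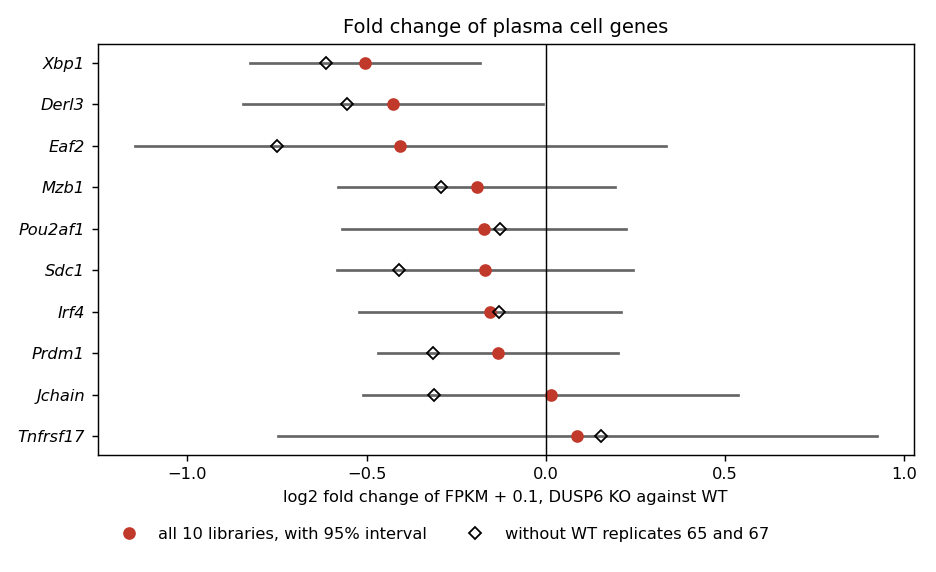
Log2 fold changes of the 10 plasma cell genes (horizontal axis, DUSP6 KO against WT) from limma with 95% confidence intervals (red points and grey lines), and the estimates without WT replicates 65 and 67 (open diamonds). The intervals of 8 members hold 0, and those of Xbp1 and Derl3 lie below it.

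By mean FPKM over the 10 libraries, the order of the members was Jchain, Mzb1, Pou2af1, Xbp1, Irf4, Derl3, Sdc1, Tnfrsf17, Prdm1 and Eaf2. The ranges over libraries did not overlap between Jchain and Mzb1, between Xbp1 and Irf4, and between Prdm1 and Eaf2. Mzb1 and Pou2af1, Pou2af1 and Xbp1, Irf4 and Derl3, and Derl3 and Sdc1 had overlapping ranges, but the first of each pair was higher in 10 of 10 libraries. Sdc1 was above Tnfrsf17 in 9 of 10 libraries. Tnfrsf17 and Prdm1 could not be ordered, since Tnfrsf17 was higher in 5 of 10 libraries.

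Mice of the same genotype differed in most members at once. WT replicate 73 had the highest value of all libraries for 8 of 10 members, the exceptions being Tnfrsf17 and Pou2af1, which were highest in WT replicate 67. DUSP6 KO replicate 01 had the lowest value for 5 members (Mzb1, Xbp1, Prdm1, Derl3 and Eaf2), and 0 of its 10 members were above their own mean over the libraries. WT replicate 65 also had 0 members above the mean and was lowest for Jchain and Tnfrsf17. Averaged over the members, centred log2 values ran from −0.45 in DUSP6 KO replicate 01 and −0.36 in WT replicate 65 to 0.47 in WT replicate 73. DUSP6 KO replicate 21 had 10 of 10 members above the mean, with an average of 0.20. The highest and lowest libraries by these members were thus not divided by genotype alone. Leaving out both WT replicates 65 and 67 moved the median log2 fold change of the members from −0.17 to −0.31 and raised the number that was lower with an unadjusted limma p under 0.05 from 2 to 4 (Xbp1, Derl3, Sdc1 and Eaf2), while 0 passed after adjustment. In that fit 2.81% of all genes were lower at this threshold. That setting was chosen after the values were seen.

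**Figure D3:**
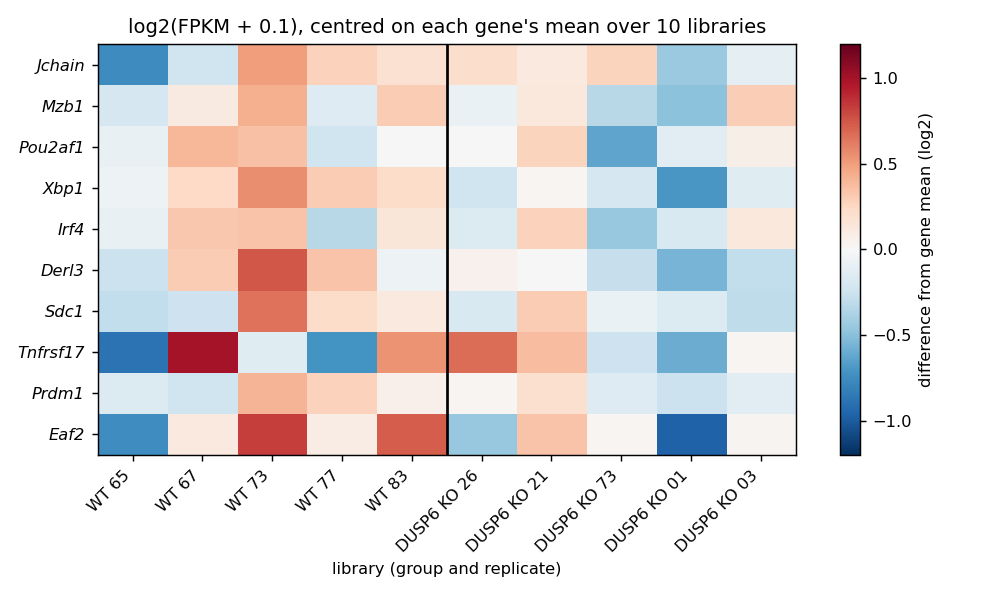
Each cell is the log2(FPKM + 0.1) of a plasma cell gene (rows) in a library (columns, WT left of the line and DUSP6 KO right) after subtraction of the gene's mean over the 10 libraries, with red above and blue below the mean. WT 73 is above the mean for 9 of 10 genes, and WT 65 and DUSP6 KO 01 for 0 of 10.

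The genes outside the members with the most similar profile were sought among the 13412 whose mean reached 1 FPKM, by the root mean square difference of their centred log2 values from the members' average over the 10 libraries. The closest was Trp53inp1 (difference 0.086, mean 26.9 FPKM), a stress-induced gene that is on the list of other plasma cell genes used here. It was followed by the XBP1 target Edem1 (0.12), Zfp40 (0.13), Hook1 (0.13), Osbpl3 (0.13) and Zfyve16 (0.13). Of these 6 genes, 5 were highest in WT replicate 73, and Zfp40 was highest in WT replicate 83. This follows from how they were picked, since the members' average was itself highest in WT replicate 73 (0.47) and next in WT replicate 83 (0.22). Of the members themselves, Mzb1 was closest to the average they form (0.14) and Tnfrsf17 the farthest (0.50).

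XBP1 acts on genes for ER chaperones, translocation and ER-associated degradation, and a list of 20 such genes, none of them a member, was compared in the same fit. Of these, 17 had a log2 fold change below 0 in DUSP6 KO (51% of all genes had), with a median of −0.19. An unadjusted limma p under 0.05 was found for 8 lower and 0 higher genes, against 3.03% and 2.62% of all genes, and 0 passed after adjustment by limma or by limma voom. The lowest p was that of Pdia6, which encodes a protein disulfide isomerase. Its values were 48.6, 41.6, 43.5, 37.6 and 41.3 FPKM in mutant and 56.2, 50.2, 55.3, 55.8 and 47.4 FPKM in WT spleens, so that 4 of 5 DUSP6 KO spleens were below every WT spleen. Its log2 fold change was −0.32 (95% confidence interval −0.50 to −0.13, limma adjusted p = 0.46). Creld2, a secreted ER stress factor, had the largest difference of the list, with 28.5 ± 4.3 FPKM in mutant against 40.98 ± 8.2 FPKM in WT spleens (log2 fold change −0.51, limma adjusted p = 0.56). The chaperone genes Hyou1 and Hsp90b1 had log2 fold changes of −0.29 and −0.30 (limma adjusted p = 0.75 for both). Hsp90b1 lies on chromosome 10 (start 86690209), nearer to the deleted Dusp6 (start 99263231) than Derl3 does. Edem1, Sdf2l1, Syvn1 and Pdia4 were the other genes at an unadjusted p under 0.05, with log2 fold changes between −0.33 and −0.27. For Hspa5, the main ER chaperone, the log2 fold change was −0.19 (limma adjusted p = 0.94), and for Ern1, which encodes the IRE1 enzyme that splices the Xbp1 mRNA, it was 0.095 (limma adjusted p = 0.99). The 8 lower genes became 4 without WT replicate 73, 5 without DUSP6 KO replicate 01 and 9 without WT replicates 65 and 67. The list was drawn up by hand with earlier results of these data known, so its counts are no independent test. Like the members, its genes are not replicates of each other. These genes are expressed in most cells of the spleen, and the part of plasma cells in their values was not tested.

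**Figure D4:**
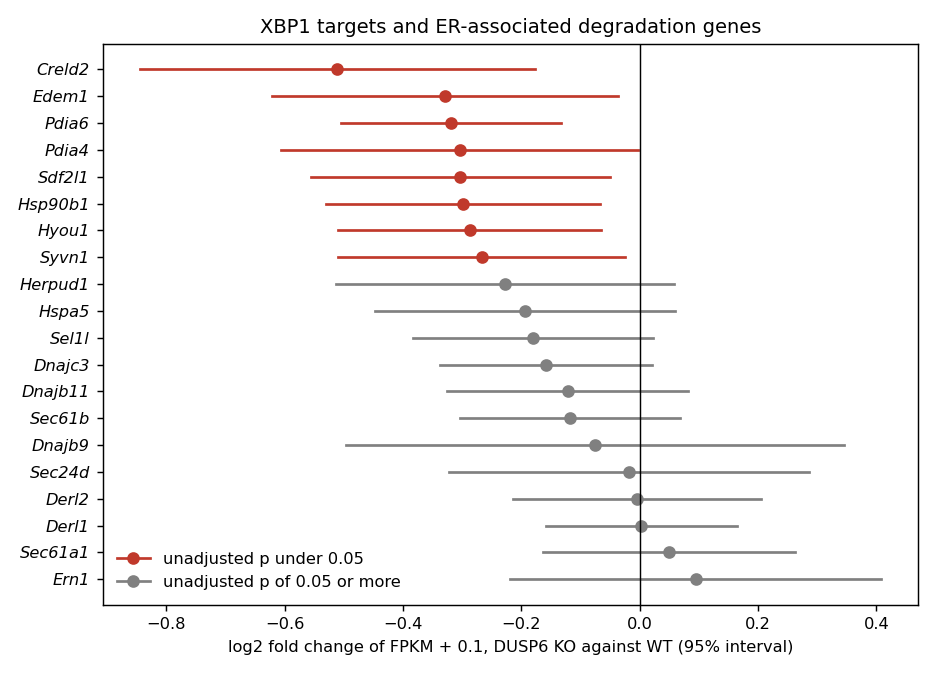
Log2 fold changes (horizontal axis, DUSP6 KO against WT) of 20 XBP1 target and ER-associated degradation genes with 95% confidence intervals from limma, in red for an unadjusted p under 0.05. The 8 red genes all lie below 0, from −0.51 for Creld2 to −0.27 for Syvn1, and none passed after adjustment over all genes.

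Other genes that plasma cells express had p-values above 0.05 before and after adjustment in the fit of all 10 libraries. Of a list of 20, 19 passed the filter, 14 had a log2 fold change below 0 (51% of all genes had), and the median was −0.070. There were 0 genes at an unadjusted limma p under 0.05 and 0 after adjustment. The lowest p-values were those of Sec11c, a subunit of the signal peptidase (log2 fold change −0.17), Edem2 (−0.23), Trp53inp1 (−0.25) and Fkbp11 (−0.47), with limma adjusted p-values of 0.92 to 0.96. Without WT replicates 65 and 67, 4 genes of this list were lower at an unadjusted p under 0.05, against 2.81% of all genes in that fit. Cacna1s was listed at 0 in all 10 libraries. The list is not confined to plasma cells, since Vcam1 is also one of the red pulp macrophage markers used here. Tent5c, at 170.2 FPKM, and the sum of the 10 dividing cell markers were both highest in DUSP6 KO replicate 73.

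Regulators that maintain B cell identity and are turned off in plasma cells had no genes past the threshold either. Of 10 genes, 9 had a log2 fold change below 0 (51% of all genes had), and the median was −0.13. No gene had an unadjusted p under 0.05 in limma or limma voom. The lowest p-values were those of Bcl6 (log2 fold change −0.31), Spib (−0.27), Pax5 (−0.23) and Ebf1 (−0.25), with limma adjusted p-values of 0.94 to 0.98. All 8 B cell markers had a log2 fold change below 0, against 51% of all genes, with 0 at an unadjusted p under 0.05. Whether a smaller share of B cells takes part in the values of members that B cells also express was not tested.

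Of 11 ligands, receptors and niche signals for plasma cell survival, 10 reached the minimum for testing, and 0 passed after adjustment. The log2 fold change was below 0 for 6 and above 0 for 4 (51% of all genes were below 0), with a median of −0.18. The median was −0.011 without WT replicates 65 and 67, −0.043 without DUSP6 KO replicate 73 and −0.078 without WT replicate 67. Il5ra, the receptor chain for IL5 that activated B cells express, had the lowest p, with 2.27 ± 0.53 FPKM in mutant against 3.96 ± 1.55 FPKM in WT spleens (log2 fold change −0.72, limma adjusted p = 0.79). It was the one gene of the list at an unadjusted p under 0.05, where 3.03% of all genes were lower and 2.62% were higher. Without WT replicates 65 and 67, 0 genes of the list were at this threshold. Tnfsf13, which encodes APRIL, a ligand of the Tnfrsf17 product, averaged 1.53 ± 0.32 FPKM in mutant against 1.197 ± 0.318 FPKM in WT spleens (log2 fold change 0.35, limma adjusted p = 0.94). For Tnfrsf13c, the BAFF receptor, the log2 fold change was −0.32 (limma adjusted p = 0.95), and for Il21 it was −0.60 (limma adjusted p = 0.97) at a mean under 0.2 FPKM in both groups.

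Antibody transcripts, the main product of plasma cells, took up 2.11%, 2.36%, 2.11%, 1.53% and 2.07% of the reads in DUSP6 KO and 1.65%, 2.02%, 3.31%, 2.81% and 2.58% in WT. The mean was 2.04% ± 0.30 in mutant against 2.47% ± 0.65 in WT spleens, a difference within the spread between mice (two-sided exact permutation test, p = 0.22). Without WT replicates 65 and 67 the difference was −0.86 percentage points (exact permutation test, two-sided, p = 0.018, the lowest possible for 5 against 3). These libraries had the lowest shares of the WT mice, so that leaving them out ended the overlap of the groups. The setting was chosen after the values were seen. As for the members, WT replicate 73 was highest and DUSP6 KO replicate 01 lowest. The share counts reads on constant and variable genes alike, and the part of B cells in it was not tested. Of 12 constant region genes, 8 had a log2 fold change below 0 (51% of all genes had), with a median of −0.19. Of these 12 genes, 0 passed after adjustment by limma or by limma voom. Ighg3 was the one at an unadjusted limma p under 0.05, where 3.03% of all genes were lower and 2.62% were higher. It had 42.8 ± 25.1 FPKM in mutant against 99.1 ± 73.8 FPKM in WT spleens (log2 fold change −1.13, limma adjusted p = 0.82). Igha, whose product is joined by the J chain, lay the other way, with 679.7 ± 376.7 FPKM in mutant against 357.7 ± 135.3 FPKM in WT spleens (log2 fold change 0.82, limma adjusted p = 0.89). Ighm had a log2 fold change of −0.50 and Ighg1 one of −0.92 (limma adjusted p = 0.94 for both).

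**Figure D5:**
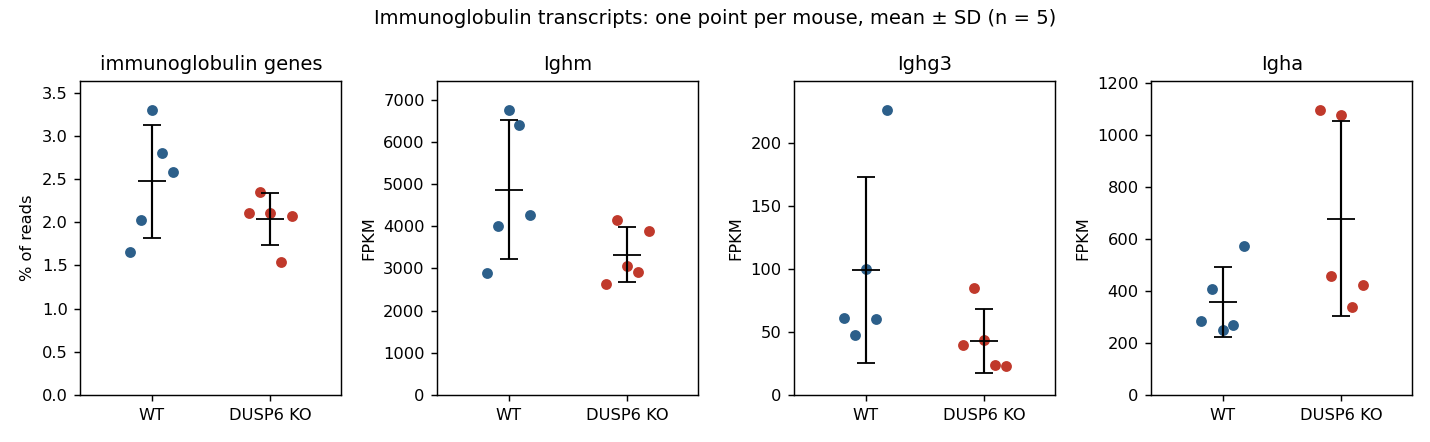
Share of reads on immunoglobulin genes (first panel, percent) and FPKM of the constant region genes Ighm, Ighg3 and Igha in WT (blue) and DUSP6 KO (red), with 1 point per mouse and the mean with SD as bars (n = 5). The groups overlap in every panel, with 2.04% of reads in DUSP6 KO and 2.47% in WT in the first.

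Markers of other cells that express some of the members were examined in the same fit. Over all genes, 3.03% were lower and 2.62% were higher at an unadjusted limma p under 0.05. The 8 germinal centre markers had a median of 0.024 (log2 fold change) and 0 genes at an unadjusted limma p under 0.05, and summed to 32.9 to 57.1 FPKM in mutant and 38.5 to 59.0 FPKM in WT spleens, where WT replicate 73 was highest. The 10 markers of dividing cells, which plasmablasts share with erythroid precursors, had a median of 0.23 and 0 genes at that threshold, with sums of 147.8 to 754.4 FPKM in mutant and 125.2 to 554.9 FPKM in WT spleens. The 8 T cell markers had a median of 0.0086, with 0 genes at that threshold. Of 8 markers of plasmacytoid dendritic cells, 1 (Siglech, log2 fold change 0.34) was higher at that threshold, and the median was −0.055, with sums of 222 to 424 FPKM and 252.4 to 810.0 FPKM. The highest sum was that of WT replicate 67, where Klk1 alone was at 285.1 FPKM against 1.62 to 4.18 FPKM in the other 9 libraries. The next highest WT sum was 429.5 FPKM. Ly6d, at 163 to 371 FPKM in mutant and 208 to 477 FPKM in WT spleens, made up most of each of these sums. Like the sum of the B cell markers, Ly6d was lowest in DUSP6 KO replicate 73 and highest in WT replicate 67. The 8 red pulp macrophage markers had a median of 0.062, with 1 higher gene (Adgre1, log2 fold change 0.38, limma adjusted p = 0.59). All DUSP6 KO values of Adgre1 were above those of WT, which held for 0.549% of all genes. Of 8 mesothelial and epithelial markers, which include cells that express Sdc1, 1 was lower (Krt19, at 0 to 37 reads per library). The median was −1.18, and the sums were 2.71 to 5.96 FPKM in mutant and 3.76 to 15.2 FPKM in WT spleens. Wt1, with 186 to 469 reads per library, was the 1 marker with a log2 fold change above 0, at 0.15. The 14 pancreatic markers had a median of −4.05, with 0 at that threshold. The part of any of these cells in the values of the members was not tested, apart from the values without WT replicates 65 and 67.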

How the data were processed

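Per the labels and the supplementary methods, Hisat2 was used for alignment and featureCounts 1.5.0-p3 for counting, and the authors deposited 1 FPKM value per gene and mouse. The processing notes name hg38, a human build. Of the 54532 genes, 53499 (98.1%) have identical coordinates in the mouse GENCODE annotation M21 (GRCm38), the build of the positions given here. FPKM times gene length was a whole multiple of 1 step in each library (100% of values within 0.01 of a read), which gave the reads, 14990474 to 19822673 per library. The FPKM divisor was 0.949 to 1.12 times this total.

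Genes whose mean over the libraries was 0.1 FPKM or more (21296) were fitted by limma 3.58.1 under R 4.3.3, on log2(FPKM + 0.1) with a trended eBayes prior and Benjamini-Hochberg adjustment. On this scale fold changes of low genes are understated. The fit was tested on simulated data. DESeq2, which the authors used, was not run. Single values were compared by two-sided exact permutation tests. P-values set the difference between the groups against the spread between mice. The labels do not say whether mice shared litters or cages. Figures were drawn with matplotlib 3.10.9.

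The members and gene lists were chosen with earlier results of these data known. The genes named are the members, Dusp6, up to 4 genes of each other list with the lowest p, and the 6 genes most like the members. Other genes named were chosen after their values were seen. As alternatives, the pseudocount was 1 or 0.01, the minimum mean was 1 FPKM or absent, and the prior had no trend or a robust one. Log2 values were quantile normalized or given array weights, FPKM were rescaled after removal of haemoglobin, mitochondrial and antigen receptor genes, limma voom (TMM scaling) was run on the recovered reads, and each library was left out. FPKM on the recovered totals and leaving out WT replicates 65 and 67 were added after the data were seen.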

Additional observations from a re-analysis of the deposited data

Results flagged for a closer look

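Groups of 5 libraries were examined for 1 library far from the others (Dixon's ratio above 0.71) over the members, Dusp6, the summed lists, the immunoglobulin share and the read totals, 52 groups in all. Chance gives about 1 such group in 20, and 2 were found, both for WT replicate 67. Its 14 exocrine pancreas markers summed to 19901 FPKM, against 13.4 to 249 FPKM in the other WT libraries. Its reads numbered 18422147, against 15611652 to 16348136 in the other WT libraries. None of the members was found in this way in either group.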

How the results depend on the processing

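Under the 22 alternatives, 0 members passed after adjustment, and the median log2 fold change of the members stayed between −0.31 and −0.10. Members lower at an unadjusted limma p under 0.05 numbered 1 in place of 2 without the trended prior, with quantile normalization and with rescaling, 4 without WT replicates 65 and 67, and 1 to 2 with 1 library left out (1 without DUSP6 KO replicate 73, 01 or 03, or WT replicate 67, 73 or 77). The log2 fold change of Jchain turned to −0.12 with array weights and −0.31 without WT replicates 65 and 67, and ran from −0.17 to 0.14 with 1 library left out. That of Tnfrsf17 ran from −0.12 to 0.35 with 1 library left out.

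At the same threshold, other plasma cell genes that were lower numbered 3 with array weights, 4 without WT replicates 65 and 67 and 1 with FPKM on recovered totals in place of 0, and 0 to 3 with 1 library left out. XBP1 targets that were lower numbered 4 to 9 with 1 library left out. Lower B cell regulators numbered 1 with array weights in place of 0, and 0 to 2 with 1 library left out. Lower survival signals numbered 0 without WT replicates 65 and 67 in place of 1, and 0 to 2 with 1 library left out. Lower immunoglobulin constant genes numbered 2 with limma voom, array weights or without WT replicates 65 and 67 in place of 1, and 0 to 2 with 1 library left out. Higher ones numbered 1 with quantile normalization, limma voom or FPKM on recovered totals in place of 0, and 0 to 1 with 1 library left out, and their median was 0.0074 with quantile normalization. With 1 library left out, the median log2 fold change ran from −0.12 to −0.037 for other plasma cell genes, −0.24 to −0.15 for XBP1 targets, −0.29 to −0.051 for B cell regulators, −0.28 to −0.043 for survival signals and −0.36 to −0.045 for immunoglobulin constant genes. The rescaling removes the immunoglobulin genes, so it gave no value for that list. The immunoglobulin share differed by −0.86 percentage points without WT replicates 65 and 67, in place of −0.44, and by −0.64 to −0.23 with 1 library left out.

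Over all genes, 13 in place of 8 were higher after adjustment with array weights and 4 in place of 7 were lower at a minimum of 1 FPKM. With 1 library left out, 6 to 21 were higher and 4 to 13 lower (21 and 13 without DUSP6 KO replicate 21, 4 lower without WT replicate 83). The cause of these shifts was not tested. No paired analysis was possible because the groups share 1 replicate number only, 73, and the labels tie it to nothing. Tnfrsf17, Eaf2 and Prdm1 rested on 19 to 357 reads per library, and the intervals of the members' fold changes set what this design could detect.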
